A study of Homo sapiens with 38 samples.

Results

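Interferon-stimulated genes are the genes that cells switch on after an interferon binds its receptor. The list examined here names 36 of them by symbol, and 34 were found by Ensembl identifier among the 18011 genes of the count table. IFI44L and XAF1 are not analysed here. Members were taken by gene name, with earlier results of these data known.

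Type I and type III interferons act through the kinases JAK1 and TYK2, which phosphorylate transcription factors of the STAT family. With IRF9 these bind a short DNA element, the interferon-stimulated response element, in front of the responding genes. The products of these genes degrade or block viral RNA, tag proteins with ISG15, hold virus particles at the cell surface, or sense foreign nucleic acid and so raise the response further. In B cells the same genes can also be expressed at a low level without infection.

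RNA was sequenced from 6 human diffuse large B-cell lymphoma lines: OCILY1, PFEIFFER, SUDHL4, SUDHL6, TOLEDO and WSUDLCL2. They were kept with the solvent DMSO alone, with pracinostat or with vorinostat, for 6 h or 14 days, and both drugs are hydroxamic acid inhibitors of histone deacetylases, enzymes that remove acetyl groups from histones and other proteins. At 6 h there were 6 libraries with DMSO, 6 of pracinostat and 5 of vorinostat cells. At 14 days there were 5 of each drug and 5 in each of the solvent sets that the titles call DMSOP and DMSOV. SUDHL6 was analysed at 6 h only, and there without vorinostat. Each drug at 14 days was set against the DMSO set that carries its first letter, although no label explains the letters. The doses used are not known here. Each line is an established cell line sequenced once under each condition, which makes the line the replicate, and nothing states that libraries came from separate cultures. In the drug tests the p-values rest on the spread of changes between lines, which includes technical spread. In the test between lines the replicates are solvent libraries of the same line, so those p-values may measure technical spread in part.

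The 37 libraries held 3.19 to 8.92 mega counts (M). Levels are in CPM, counts scaled to a library size of 1 M. Where a library had no count, up to 3 may have been missed by chance, a floor of 0.332 to 1.03 CPM that covers counting error only. All 6 B-cell markers were in the table, and their summed level was 1875 to 9179 CPM, with a median of 5577 CPM in DMSO at 6 h against 2560 with pracinostat and 2519 with vorinostat. At 14 days the medians were 3269 CPM in DMSOP against 6308 with pracinostat, and 3524 in DMSOV against 4238 with vorinostat. Of 6 monocyte markers 3 were in the table (CSF1R, ITGAM and CD33), and their sum at 14 days was 0 to 1.57 CPM in DMSOP, 0.780 to 19.5 with pracinostat, 0 to 1.67 in DMSOV and 1.08 to 37.1 with vorinostat. NK-cell markers (2 of 4 in the table) summed at 14 days to 0.249 to 0.897 CPM in DMSOP, 0.487 to 18.2 with pracinostat, 0.436 to 1.53 in DMSOV and 0.332 to 17.1 with vorinostat. Fibroblast markers (2 of 3) summed there to 0 to 50.5 CPM in DMSOP (median 4.17), 5.77 to 56.0 with pracinostat (19.2), 0 to 65.2 in DMSOV (4.04) and 2.35 to 36.6 with vorinostat (18.1). T-cell markers (2 of 4) summed to at most 3.35 CPM at either time and epithelial markers (3 of 3) to at most 284 CPM. Of 5 plasmacytoid dendritic cell markers LILRA4 and TCF4 were in the table, and their sum at 14 days had a median of 127 CPM in DMSOP, 119 with pracinostat, 103 in DMSOV and 176 with vorinostat. Nearly all of that sum was TCF4, since LILRA4 was at most 3.74 CPM in any library, so the sum says little about such cells. The share of counts from mitochondrially encoded genes also moved with drug at 14 days, from a median of 8.76% in DMSOP to 14.7% with pracinostat and from 11.0% in DMSOV to 16.5% with vorinostat. The part of these shifts in the changes below was not tested. In bulk RNA, fewer cells that express a gene and less RNA per cell cannot be told apart.

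Several members lie beside each other in the genome. IFIT2, IFIT3, IFIT1 and IFIT5 lie on chromosome 10, OAS1, OAS3 and OAS2 on chromosome 12, MX2 and MX1 on chromosome 21, HERC6 and HERC5 on chromosome 4, and SAMD9 and SAMD9L on chromosome 7. IFIT1, IFIT2 and IFIT3 overlap LIPA, RSAD2 overlaps CMPK2, PARP9 overlaps DTX3L, TRIM22 overlaps TRIM5, and IRF9 overlaps AL136295.5. The strand setting of the counting is not given, so reads in these overlaps cannot be told apart.

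The interferon-stimulated response element was searched for by its core, which is GAAA, any 2 bases and GAAA again, on either strand. The windows ran from 250 bases before to 50 after the RefSeq gene start on GRCh38.p14, and 26 of the 34 members had one. IFIT2, MX2, OAS2, OASL, DHX58, USP18, IRF7 and TRIM22 had none. The core was in 18 of the 26 member windows (69.2%, 95% Wilson interval 50 to 83.5) and in 1255 of 35116 windows of the same length (3.57%). The gamma-activated site, the element of the interferon gamma response, was in 8 of 26 (30.8%, 16.5 to 50) against 2689 of all windows (7.66%). The windows of OAS1, IFI35, IFI16, DDX58, HERC6, IRF9, SAMD9L and CMPK2 held no core match, which says only that these letters are not in the window. The stretches below, 1 for each member, are from members whose RNA changed with a drug. Capitals mark the core, which reads TTTC, any 2 bases and TTTC where the match is on the other strand. In ISG15 a pair of cores overlaps, in IFI27 cores on both strands lie side by side, and the windows of IFIT3 and IFI6 hold further matches that are not shown.
ISG15: cctcggGAAAGGGAAACCGAAActgaag
ISG20: aaactaGAAACTGAAAcagggt
IFI6: agagggGAAAATGAAActgcag
IFI27: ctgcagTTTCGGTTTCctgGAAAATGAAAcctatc
IFIT3: catcagTTTCACTTTCctttcc
SAMD9: agaaatGAAACTGAAAccaaac
PARP9: gcaaagTTTCAGTTTCgcttcc
PARP14: ggaaacGAAAGCGAAAgagtca
They lie at chr1:1013378-1013405 (ISG15, plus strand), chr15:88638941-88638962 (ISG20, plus), chr1:27672292-27672313 (IFI6, minus), chr14:94110622-94110656 (IFI27, plus), chr10:89332472-89332493 (IFIT3, plus), chr7:93118100-93118121 (SAMD9, minus), chr3:122564326-122564347 (PARP9, minus) and chr3:122680804-122680825 (PARP14, plus).

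BST2 and SAMD9L are shown with all 250 bases before their start, because RNA of both rose with drug and only the window of BST2 holds the core. In BST2 a pair of cores overlaps and is in capitals, at chr19:17405631-17405880 on the minus strand. The SAMD9L stretch, chr7:93148386-93148635 on the minus strand, has no capitals. It does hold the core with 1 base less at each end, as do 22.2% of all windows.
BST2: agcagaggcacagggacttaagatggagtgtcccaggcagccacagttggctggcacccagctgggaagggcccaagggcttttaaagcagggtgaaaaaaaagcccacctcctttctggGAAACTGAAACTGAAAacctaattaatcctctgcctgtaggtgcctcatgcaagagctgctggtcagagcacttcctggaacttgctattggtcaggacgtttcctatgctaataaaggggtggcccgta
SAMD9L: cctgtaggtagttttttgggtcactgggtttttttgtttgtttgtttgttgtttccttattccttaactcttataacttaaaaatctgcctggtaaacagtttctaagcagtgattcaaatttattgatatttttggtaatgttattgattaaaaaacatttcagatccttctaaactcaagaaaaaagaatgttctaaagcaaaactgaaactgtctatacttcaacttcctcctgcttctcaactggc

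**Figure D1:**
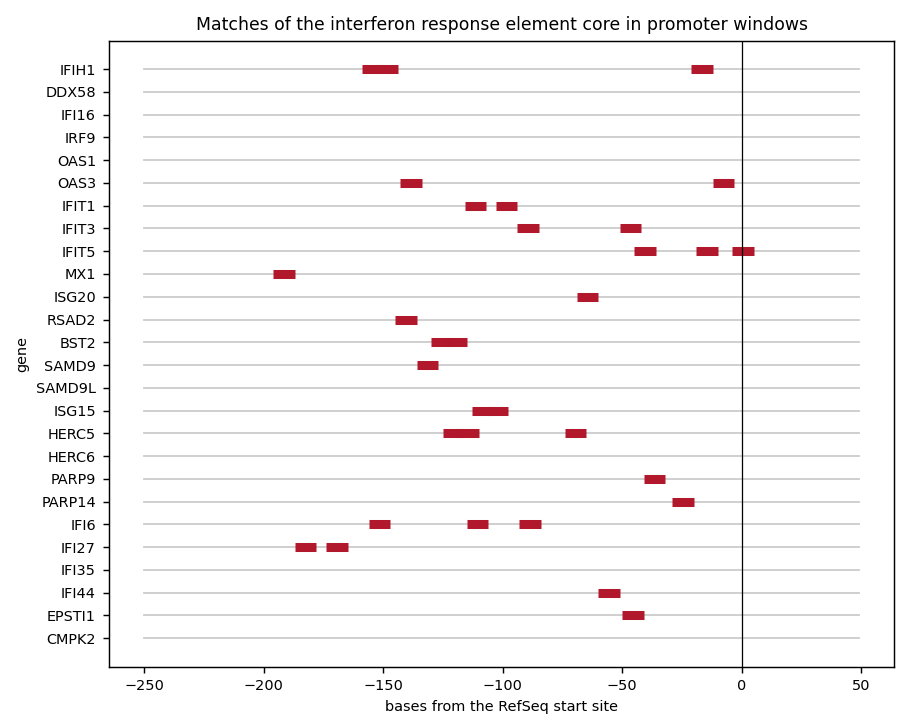
Positions of the core matches (red bars, either strand) in the promoter windows of the 26 members with one, against the distance from the RefSeq start site in bases (x axis), with 1 gene per row and the window as a grey line. The 18 windows with a match hold 1 or more, while DDX58, IFI16, IRF9, OAS1, SAMD9L, HERC6, IFI35 and CMPK2 hold none.

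In solvent, the members differed widely between the lines. Over the 5 lines with solvent at both times (3 libraries each), 28 of 29 tested members differed between lines at an adjusted p under 0.05 by edgeR, all but IRF9. The background is high, since 90.3% of all genes tested were called in the same test. The 3 solvent libraries of a line are not stated to be separate cultures, so these p-values may measure technical spread in part. The range of the line effects fitted by edgeR over these 5 lines had a median of 4.75 on the log2 scale over the tested members and 1.61 over all genes tested. A line with counts near 0 widens this range. By another measure, mean log2 CPM with a prior count of 2, the widest ranges between the 6 lines were those of MX2, MX1, SAMD9 and OAS3.

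MX1 and MX2 encode dynamin-like GTPases that block the entry or uncoating of viruses. The mean solvent level of MX2 was 69.3 CPM in OCILY1, 95.5 in PFEIFFER, 0.182 in SUDHL4, 52.9 in SUDHL6 (1 library), 130.4 in TOLEDO and 0 in WSUDLCL2. MX1 was at 15.3, 43.9, 0, 1.77, 73.4 and 0.302 CPM in the same order. SUDHL4 and WSUDLCL2 thus lay at or near 0 for both genes, and TOLEDO was highest for both. SUDHL6 was close to OCILY1 for MX2 but far below it for MX1.

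OAS3 makes the oligoadenylates that activate RNase L, and SAMD9 is an antiviral restriction factor. OAS3 stood at 41.8 CPM in OCILY1, 3.08 in PFEIFFER, 0.469 in SUDHL4, 33.5 in SUDHL6, 0.346 in TOLEDO and 46.4 in WSUDLCL2. Here TOLEDO was among the lowest and WSUDLCL2 among the highest, the reverse of their places for MX2. SAMD9 stood at 68.1, 22.6, 14.6, 43.2, 40.1 and 0.417 CPM in the same order, and only WSUDLCL2 was below 1 CPM.

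IFI16, a nuclear DNA sensor, and BST2, the membrane protein tetherin that holds budding virus on the cell, were detected in every line. IFI16 was highest in TOLEDO at 566.9 CPM and lowest in PFEIFFER at 51.8, while OCILY1, SUDHL4, SUDHL6 and WSUDLCL2 lay between 180.2 and 202.6 CPM, with libraries that overlapped. BST2 ran from 21.7 CPM in SUDHL6 to 72.3 in PFEIFFER. The solvent libraries of OCILY1 (50.1 to 65.9 CPM), SUDHL4 (52.6 to 79.1) and WSUDLCL2 (52.2 to 58.1) overlapped for BST2, so their order is within the spread of the libraries. IFIT1, which binds viral RNA lacking a ribose methyl at the cap, was at most 0.534 CPM in any solvent library.

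**Figure D2:**
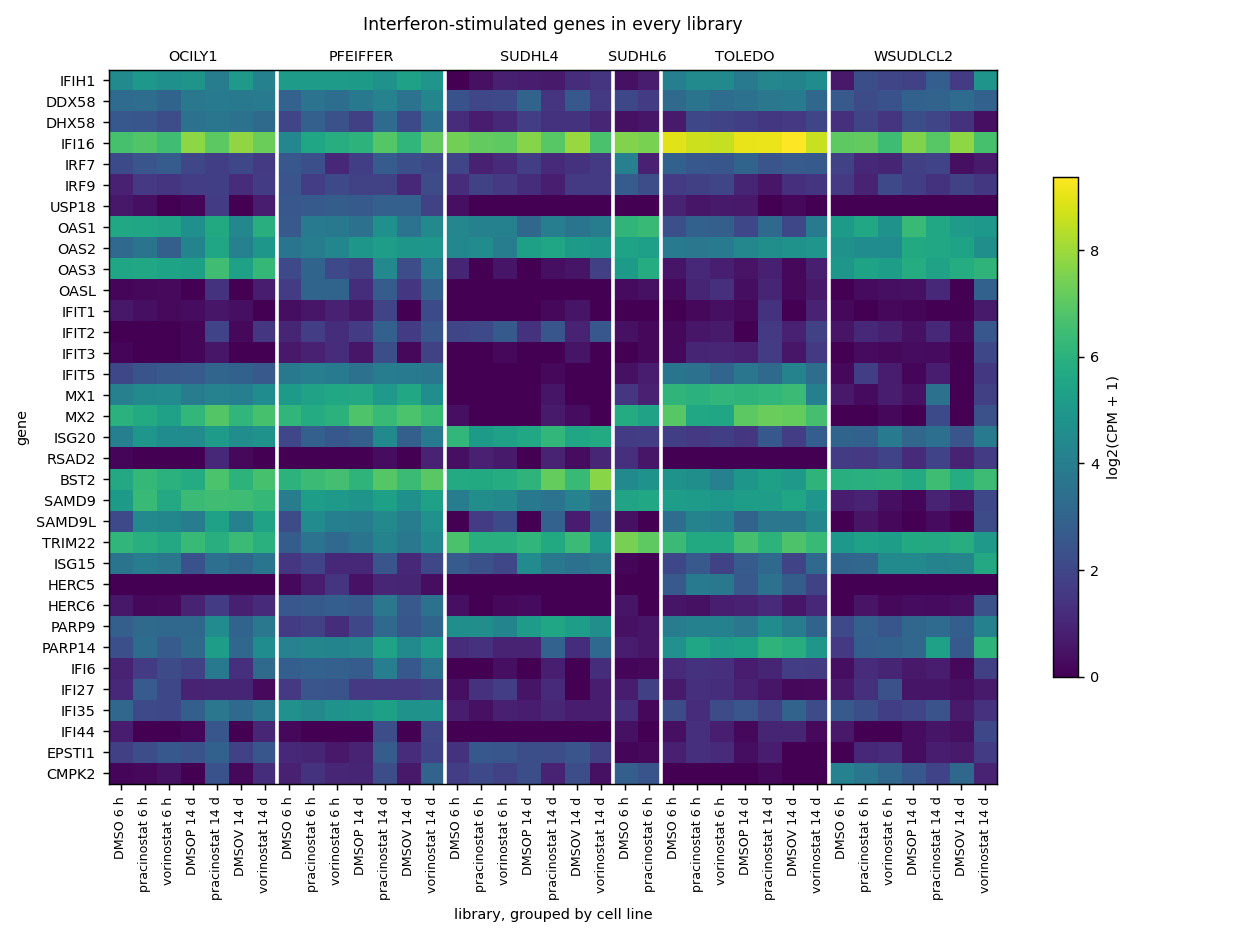
Level of each member (rows) in every library (columns, grouped by cell line) as colour, on the scale log2(CPM + 1). MX1 and MX2 are near 0 in the solvent libraries of SUDHL4 and WSUDLCL2 and highest in TOLEDO, and IFI16 is highest in TOLEDO.

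Genes with too few counts were left out of the drug tests. At 6 h 25 members were tested, and IFIT1, IFIT2, IFIT3, OASL, IFI44, RSAD2, HERC5, HERC6 and USP18 were not. Of the 25, 11 reached the limit of 1.66 CPM in 5 libraries through solvent libraries alone, while 14 needed drug libraries: IFIT5, MX1, MX2, OAS3, IFI6, IFI27, IFI35, IFIH1, DHX58, IRF9, SAMD9L, PARP14, EPSTI1 and CMPK2. At 14 days 29 were tested, and IFIT1, RSAD2, HERC5, IFI27 and IFI44 were not. There 22 reached the limit of 1.47 CPM on solvent libraries alone, and IFIT2, IFIT3, OASL, HERC6, USP18, EPSTI1 and CMPK2 needed drug libraries. At either time, a rise of a member that needed drug libraries had an advantage in being tested. Counts of calls over the tested members are therefore a description.

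At 6 h few members moved. IFI27 and SAMD9L rose with both drugs, SAMD9 and PARP14 rose with pracinostat, MX2 fell with both drugs and IFI35 fell with pracinostat. With pracinostat 4 of 25 tested members rose, where 21.2% of all 13177 genes tested did, and 2 fell, where 18.9% of all did. With vorinostat 2 rose (23.1% of all genes) and 1 fell (20.9%). Among the 11 members that passed on solvent libraries alone, the calls were 1 rise and 0 falls under pracinostat and 0 of either under vorinostat. The median log2 change of the tested members was 0.26 with pracinostat and 0.12 with vorinostat, beside 0.03 and 0.02 over all genes. Without OCILY1 2 members rose with pracinostat, and without TOLEDO 1 fell with pracinostat and 0 with vorinostat, while without PFEIFFER 3 and without WSUDLCL2 2 fell with vorinostat. Counts for line omissions and other controls, here and below, have no share of all genes beside them. Their shifts cannot be read as particular to the members. Both drugs were set against the same DMSO libraries at 6 h.

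IFI27 encodes a small mitochondrial and nuclear membrane protein. In DMSO at 6 h it was at 1.07 CPM in OCILY1, 1.92 in PFEIFFER, 0.317 in SUDHL4, 0.663 in SUDHL6, 0.613 in TOLEDO and 0.559 in WSUDLCL2. With pracinostat it was at 5.45, 4.49, 1.50, 2.45, 1.45 and 1.49 CPM in the same order, and with vorinostat at 3.08, 4.22, 2.25, 1.32 and 3.96 CPM without SUDHL6. Every drug library exceeded the DMSO library of its line, and only PFEIFFER in DMSO reached into the range of the drug groups. IFI27 reached the filter limit in 1 of 6 DMSO and 7 of 11 drug libraries, so drug libraries brought it into the test. The log2 change was 1.65 (SE 0.35, adjusted p = 0.00108 by edgeR) with pracinostat and 1.75 (SE 0.36, adjusted p = 0.000833) with vorinostat, and both calls held when any 1 line was left out. At 14 days IFI27 was at most 2.42 CPM in any library and was not tested.

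SAMD9L, the paralogue of SAMD9 and a brake on cell growth, was at 3.21, 3.57, 0, 0.332, 9.20 and 0 CPM in DMSO at 6 h, from OCILY1 to WSUDLCL2 in the order above. With pracinostat it was at 20.3, 22.2, 2.17, 0, 17.1 and 0.424 CPM, and with vorinostat at 19.0, 15.7, 3.30, 15.4 and 0.158 CPM without SUDHL6. OCILY1, PFEIFFER and TOLEDO held most of the signal, SUDHL4 went from 0 to above its floor with both drugs, and SUDHL6 and WSUDLCL2 stayed at or under 0.424 CPM. The groups overlapped because of these lines. SAMD9L reached the filter limit in 3 of 6 DMSO and 8 of 11 drug libraries, so drug libraries brought it into the test. The fitted log2 change was 1.89 (SE 0.41, adjusted p = 0.0022 by edgeR) with pracinostat and 1.79 (SE 0.42, adjusted p = 0.00305) with vorinostat. Both calls were lost with limma on the deposited normalised values (adjusted p = 0.0713 and 0.0559).

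SAMD9 at 6 h was at 33.7, 14.3, 14.3, 43.2, 37.1 and 0.698 CPM in DMSO and at 78.9, 37.4, 23.9, 46.9, 35.7 and 0.849 CPM with pracinostat. The level was more than 2-fold higher in OCILY1 and PFEIFFER and close to DMSO in SUDHL6, TOLEDO and WSUDLCL2, and the groups overlapped. Between the groups the log2 change was 0.63 (SE 0.20, adjusted p = 0.0192 by edgeR), and the call was lost without OCILY1, PFEIFFER or SUDHL4 (adjusted p up to 0.13) and with limma (0.054). With vorinostat it was 0.31 (adjusted p = 0.268).

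PARP14, a mono-ADP-ribosyltransferase, was at 3.87, 16.9, 1.27, 0.663, 25.8 and 1.96 CPM in DMSO at 6 h. With pracinostat it was at 8.98, 18.3, 1.50, 0.491, 44.8 and 5.94 CPM, higher in 5 of 6 lines and lower in SUDHL6. PARP14 reached the filter limit at 6 h in 4 of 6 DMSO and 8 of 11 drug libraries, so it too needed drug libraries. The log2 change was 0.71 (SE 0.24, adjusted p = 0.0273 by edgeR), a call lost without OCILY1, TOLEDO or WSUDLCL2 (adjusted p up to 0.117) and with limma (0.103). Under vorinostat it was 0.45 (adjusted p = 0.151).

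MX2 at 6 h was at 63.2, 71.6, 0.317, 52.9, 123 and 0 CPM in DMSO, at 52.0, 53.0, 0, 41.4, 46.5 and 0 CPM with pracinostat and at 40.6, 63.9, 0, 45.5 and 0.158 CPM with vorinostat. The largest difference was in TOLEDO, and no line was higher with pracinostat. This was a log2 change of -0.65 (SE 0.21, adjusted p = 0.0198 by edgeR) with pracinostat and -0.74 (SE 0.23, adjusted p = 0.017) with vorinostat. TOLEDO decided both calls, since without it the adjusted p was 0.156 and 0.182, and the vorinostat call was also lost without OCILY1 (0.0669). With all lines kept, the pracinostat call was lost with library totals alone (adjusted p = 0.055) and with limma (0.154), and the vorinostat call with limma (0.435). MX1, its neighbour and paralogue, had a log2 change of 0.00 (SE 0.19, adjusted p = 0.998) with pracinostat and 0.24 (SE 0.20, adjusted p = 0.348) with vorinostat.

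IFI35, a binding partner of NMI in innate signalling, was at 7.48, 25.5, 0.634, 1.33, 3.53 and 5.17 CPM in DMSO at 6 h and at 3.24, 20.1, 0.334, 0.164, 1.29 and 3.82 CPM with pracinostat. It was lower in all 6 lines, although the groups overlapped because the lines differ. In the fit the log2 change came to -0.93 (SE 0.30, adjusted p = 0.0182 by edgeR), and without OCILY1 the adjusted p was 0.0758. With vorinostat it was -0.56 (adjusted p = 0.138).

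**Figure D3:**
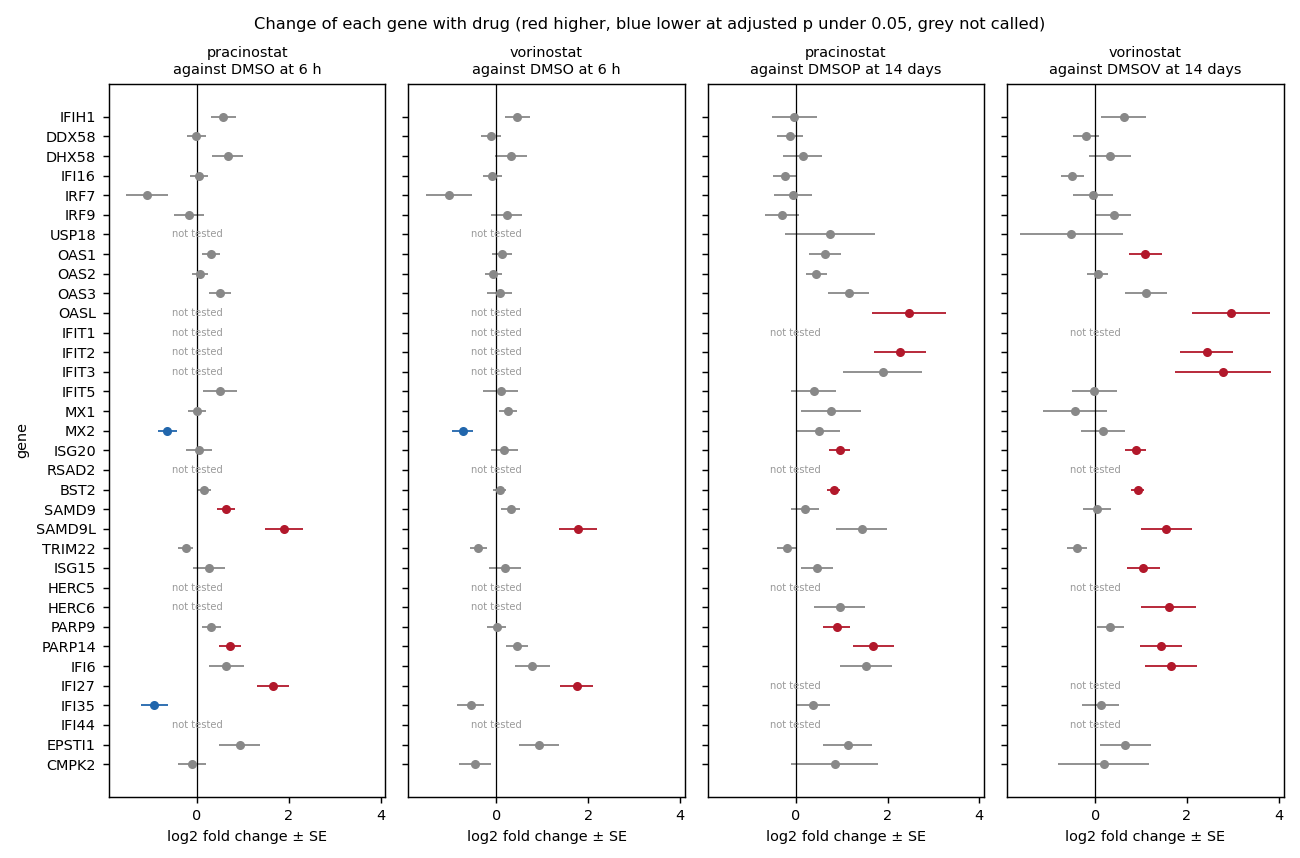
Log2 fold change against DMSO (x axis, with 1 SE as bar) of each member (rows), in 1 panel per drug and time. Red points are higher and blue points lower at an adjusted p under 0.05 by edgeR, and grey points were not called. At 6 h IFI27 and SAMD9L lie furthest to the right, and at 14 days IFIT2, OASL, ISG20, BST2 and PARP14 are red with both drugs.

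Among the members, the regulators IRF7 and IRF9 and the sensor DDX58 were not called at 6 h. IRF7, the transcription factor that amplifies interferon production, was at 3.34, 4.80, 2.85, 15.8, 6.59 and 2.51 CPM in DMSO and at 4.56, 3.85, 0.834, 0.818, 5.00 and 1.06 CPM with pracinostat. Its log2 change was -1.09 (SE 0.46, adjusted p = 0.0855 by edgeR) with pracinostat and -1.04 (SE 0.50, adjusted p = 0.12) with vorinostat, and SUDHL6 had the lowest ratio. Without OCILY1 it was called lower with both drugs (-1.42, adjusted p = 0.0425, and -1.54, adjusted p = 0.0435). IRF9, a DNA-binding partner of STAT2, changed by -0.17 (adjusted p = 0.706) and 0.22 (adjusted p = 0.622). DDX58, the RNA sensor RIG-I, was 3.10 to 8.82 CPM in DMSO (median 5.94), 2.13 to 11.1 with pracinostat (median 6.33) and 3.15 to 9.58 with vorinostat (median 7.19), so the groups overlapped throughout.

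The other members tested at 6 h were not called with either drug. They were IFIT5 (an RNA-binding protein), ISG15 (the ubiquitin-like modifier), ISG20 (an RNA exonuclease), OAS1, OAS2 and OAS3 (oligoadenylate synthetases), IFI6 (a mitochondrial and endoplasmic reticulum protein), IFIH1 (the RNA sensor MDA5), DHX58 (the helicase LGP2), BST2, PARP9 (the partner of the ubiquitin ligase DTX3L), TRIM22 (an antiviral E3 ligase), EPSTI1 (an epithelial-stromal interaction gene), CMPK2 (a mitochondrial nucleotide kinase) and IFI16. For ISG15 the log2 change was 0.26 (adjusted p = 0.593) with pracinostat and 0.18 (adjusted p = 0.71) with vorinostat.

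At 14 days more members were called higher than at 6 h and none fell, but the tested sets differ. IFIT2, IFIT3, OASL and HERC6, called at 14 days, were not tested at 6 h. The direct test of the change between times, given below, called 2 of 33 members higher with pracinostat and 1 with vorinostat, beside 9.53% and 11.2% of all genes. The members that rose with pracinostat were IFIT2, ISG20, OASL, BST2, PARP9 and PARP14. With vorinostat they were IFIT2, IFIT3, ISG15, ISG20, OAS1, OASL, IFI6, HERC6, BST2, SAMD9L and PARP14. The count was 6 of 29 tested with pracinostat, where 12.3% of all 14037 genes tested rose, and 11 of 29 with vorinostat, where 20.4% did. Among members that passed on solvent libraries alone it was 4 of 22 and 7 of 22. The count with pracinostat was 3 without OCILY1, 3 without PFEIFFER and 4 without SUDHL4, and 11 against the mean of both DMSO sets. For vorinostat it was 6 without OCILY1, 4 without PFEIFFER, 7 without SUDHL4, 7 without TOLEDO and 5 without WSUDLCL2, and 7 against the other DMSO set. The share of all genes called is not given for these settings, so the shifts cannot be read as particular to the members. The median log2 change of the tested members was 0.75 with pracinostat and 0.41 with vorinostat, beside 0.07 and 0.12 over all genes.

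No member fell with either drug at 14 days by edgeR, where 10.2% of all genes fell with pracinostat and 17.2% with vorinostat. The count of falls at an unadjusted p under 0.05 was also 0 for both drugs, and it was 0 by DESeq2 and by limma. Without PFEIFFER, IFI16 and TRIM22 fell with vorinostat, with log2 changes of -0.86 (adjusted p = 0.00176 by edgeR) and -0.67 (adjusted p = 0.00912). These comparisons have separate DMSO libraries from the same lines, and no member was called between DMSOP and DMSOV (0 of 29 by edgeR at an adjusted or an unadjusted p under 0.05, by DESeq2 and by limma, with 0% of all genes called).

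BST2 (ENSG00000130303, chr19:17402939-17405648 on GRCh38) had the smallest standard error of the members tested at 14 days. It was at 54.0 CPM in OCILY1, 68.3 in PFEIFFER, 68.4 in SUDHL4, 30.1 in TOLEDO and 52.2 in WSUDLCL2 in DMSOP, and at 105, 120.1, 143, 39.6 and 86.5 CPM with pracinostat. In DMSOV it was at 65.9, 82.1, 79.1, 31.8 and 55.3 CPM, and with vorinostat at 99.2, 124, 210.0, 68.2 and 84.1 CPM. It was higher with drug in 5 of 5 lines for both drugs, and TOLEDO alone kept the groups overlapping, since the other lines with drug were above every solvent library. The log2 change was 0.82 (SE 0.15, adjusted p = 0.00213 by edgeR) with pracinostat and 0.92 (SE 0.15, adjusted p = 0.000307) with vorinostat, and both calls held without any 1 line. At 6 h it had been 0.16 (SE 0.14, adjusted p = 0.373) and 0.07 (SE 0.14, adjusted p = 0.714).

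IFIT2 (ENSG00000119922, chr10:89283694-89309276), which binds AU-rich RNA, was low in every line. It was at 0.124, 2.21, 1.57, 0 and 0.348 CPM in DMSOP, from OCILY1 to WSUDLCL2 in the order of BST2, and at 2.68, 6.26, 4.67, 2.03 and 1.11 CPM with pracinostat. In DMSOV it was at 0.157, 2.09, 0.912, 0.816 and 0.145 CPM, and with vorinostat at 1.82, 4.69, 4.78, 2.53 and 4.91 CPM. All lines were higher with drug, and several solvent values lay under the floor of 3 counts. IFIT2 reached the filter limit in 3 of 10 solvent and 9 of 10 drug libraries, so drug libraries brought it into the test. Between the groups the log2 change was 2.28 (SE 0.57, adjusted p = 0.00872 by edgeR) and 2.43 (SE 0.58, adjusted p = 0.0035), and both calls held without any 1 line.

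IFIT3, which stabilises IFIT1 on viral RNA, rose with vorinostat by 2.79 on the log2 scale (SE 1.04, adjusted p = 0.0285 by edgeR). It was at 0, 0.139, 0.456, 0.490 and 0 CPM in DMSOV and at 0, 2.56, 0, 1.99 and 3.07 CPM with vorinostat, so PFEIFFER, TOLEDO and WSUDLCL2 were high and OCILY1 and SUDHL4 at 0. Without WSUDLCL2 the adjusted p was 0.119, and the call was also lost with limma and against the other DMSO set (up to 0.249). Only 3 of the line omissions left IFIT3 tested. It reached the filter limit in 0 of 10 solvent and 5 of 10 drug libraries. With pracinostat it was at 0.487, 3.76, 0, 2.18 and 0.223 CPM (log2 change 1.89, adjusted p = 0.102). IFIT1 was not tested, but PFEIFFER held 0.491 CPM in DMSOP, 2.76 with pracinostat, 0 in DMSOV and 3.27 with vorinostat, and TOLEDO held 0.138, 1.56, 0 and 0.903 CPM.

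OASL (ENSG00000135114, chr12:121019111-121039242 on the minus strand), a partner of RIG-I in RNA sensing, was at 0, 1.35, 0, 0.277 and 0.348 CPM in DMSOP and at 1.58, 5.64, 0, 0.936 and 1.11 CPM with pracinostat. In DMSOV it was at 0, 1.81, 0, 0.163 and 0 CPM, and with vorinostat at 0.663, 6.40, 0, 0.542 and 6.45 CPM. Both drugs had higher values in 4 of 5 lines, and SUDHL4 was at 0 in every library. OASL reached the filter limit in 1 of 10 solvent and 4 of 10 drug libraries, so drug libraries brought it into the test. edgeR gave a log2 change of 2.46 (SE 0.81, adjusted p = 0.0355 by edgeR) with pracinostat and 2.96 (SE 0.86, adjusted p = 0.0106) with vorinostat. The pracinostat call was lost without OCILY1, SUDHL4 or TOLEDO (adjusted p up to 0.131) and with limma (0.0952), and the vorinostat call without WSUDLCL2 (0.0568). Without PFEIFFER OASL was not tested.

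PARP14 (ENSG00000173193, chr3:122680618-122730840) at 14 days was at 8.46, 19.4, 0.897, 39.0 and 7.53 CPM in DMSOP and at 35.8, 41.6, 6.71, 67.9 and 40.1 CPM with pracinostat. In DMSOV it was at 7.85, 21.0, 1.37, 56.0 and 5.23 CPM, and with vorinostat at 22.4, 34.8, 8.20, 30.2 and 65.4 CPM. With pracinostat all lines were higher, while with vorinostat TOLEDO was lower than its DMSOV library and the other 4 were higher. The log2 change was 1.69 (SE 0.44, adjusted p = 0.0158 by edgeR) and 1.43 (SE 0.45, adjusted p = 0.0269). The pracinostat call was lost without OCILY1 or SUDHL4 (adjusted p up to 0.0799), and the vorinostat call without OCILY1, SUDHL4 or WSUDLCL2 (up to 0.196).

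PARP9 lies near PARP14 and was at 7.84, 2.94, 35.4, 12.3 and 7.53 CPM in DMSOP and at 21.8, 8.27, 44.5, 22.3 and 8.69 CPM with pracinostat. It rose by 0.90 on the log2 scale (SE 0.30, adjusted p = 0.0397 by edgeR), a call lost without OCILY1, PFEIFFER, SUDHL4 or TOLEDO (adjusted p up to 0.155), with library totals alone and with limma. With vorinostat it was 0.33 (SE 0.30, adjusted p = 0.414).

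ISG20 (ENSG00000172183, chr15:88636153-88656483) was at 22.2, 6.13, 48.4, 1.80 and 7.64 CPM in DMSOP and at 34.6, 21.2, 73.2, 4.99 and 9.80 CPM with pracinostat. In DMSOV it was at 23.1, 6.13, 45.2, 2.29 and 4.50 CPM, and with vorinostat at 26.9, 13.1, 51.6, 5.96 and 13.8 CPM. It was higher in every line with either drug, with SUDHL4 highest throughout. In the fit the log2 change came to 0.96 (SE 0.23, adjusted p = 0.00933 by edgeR), lost without PFEIFFER (0.07), and 0.88 (SE 0.24, adjusted p = 0.00881), held without any 1 line.

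ISG15 was at 8.00, 1.12, 10.7, 2.78 and 18.3 CPM in DMSOV and at 11.6, 3.13, 12.3, 8.31 and 49.1 CPM with vorinostat. It was at 4.11, 1.10, 22.2, 5.39 and 21.0 CPM in DMSOP and at 9.74, 4.51, 12.4, 8.11 and 17.2 CPM with pracinostat. All lines were higher with vorinostat, but SUDHL4 and WSUDLCL2 were lower with pracinostat. The fitted log2 change was 1.05 (SE 0.36, adjusted p = 0.0292 by edgeR) with vorinostat and 0.46 (SE 0.35, adjusted p = 0.367) with pracinostat. The vorinostat call was lost without PFEIFFER, TOLEDO or WSUDLCL2 (adjusted p up to 0.123), and with library totals alone or the other DMSO set (up to 0.113).

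SAMD9L rose with vorinostat at 14 days. It was at 16.3, 14.8, 0.684, 11.8 and 0 CPM in DMSOV and at 41.6, 25.9, 5.46, 19.3 and 3.38 CPM with vorinostat, higher in every line (log2 change 1.55, SE 0.56, adjusted p = 0.0419 by edgeR). The call was lost without any 1 of the 5 lines (adjusted p up to 0.109), with library totals alone and with no low-count filter (up to 0.0543). With pracinostat it was at 40.1, 20.2, 6.71, 12.3 and 0.223 CPM, against 14.7, 14.6, 0, 6.91 and 0 CPM in DMSOP (1.43, adjusted p = 0.0757).

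OAS1, IFI6 and HERC6, a relative of the ISG15 ligase HERC5, were the other members called with vorinostat. OAS1 was at 19.2, 10.9, 11.2, 3.10 and 35.7 CPM in DMSOV and at 58.4, 21.6, 14.3, 13.5 and 30.7 CPM with vorinostat, lower in WSUDLCL2 alone. Its log2 change was 1.09 (SE 0.35, adjusted p = 0.0264 by edgeR), lost without OCILY1, PFEIFFER or TOLEDO and against the other DMSO set (up to 0.125). The log2 change of IFI6 was 1.65 (SE 0.57, adjusted p = 0.0357), lost without OCILY1, PFEIFFER, SUDHL4 or WSUDLCL2 (up to 0.125). That of HERC6 was 1.60 (SE 0.59, adjusted p = 0.0409), lost without OCILY1, SUDHL4, TOLEDO or WSUDLCL2 (up to 0.117) and with library totals alone, limma or the other DMSO set (up to 0.174). Without PFEIFFER HERC6 was not tested, so no line omission kept its call. HERC6 passed the filter only with drug libraries counted. With pracinostat IFI6 stood at 1.53 (adjusted p = 0.0547), and without TOLEDO it was called (1.70, adjusted p = 0.0337). OAS1 was not called with pracinostat over all lines, but without WSUDLCL2 it was (1.15, adjusted p = 0.0066 by edgeR).

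**Figure D4:**
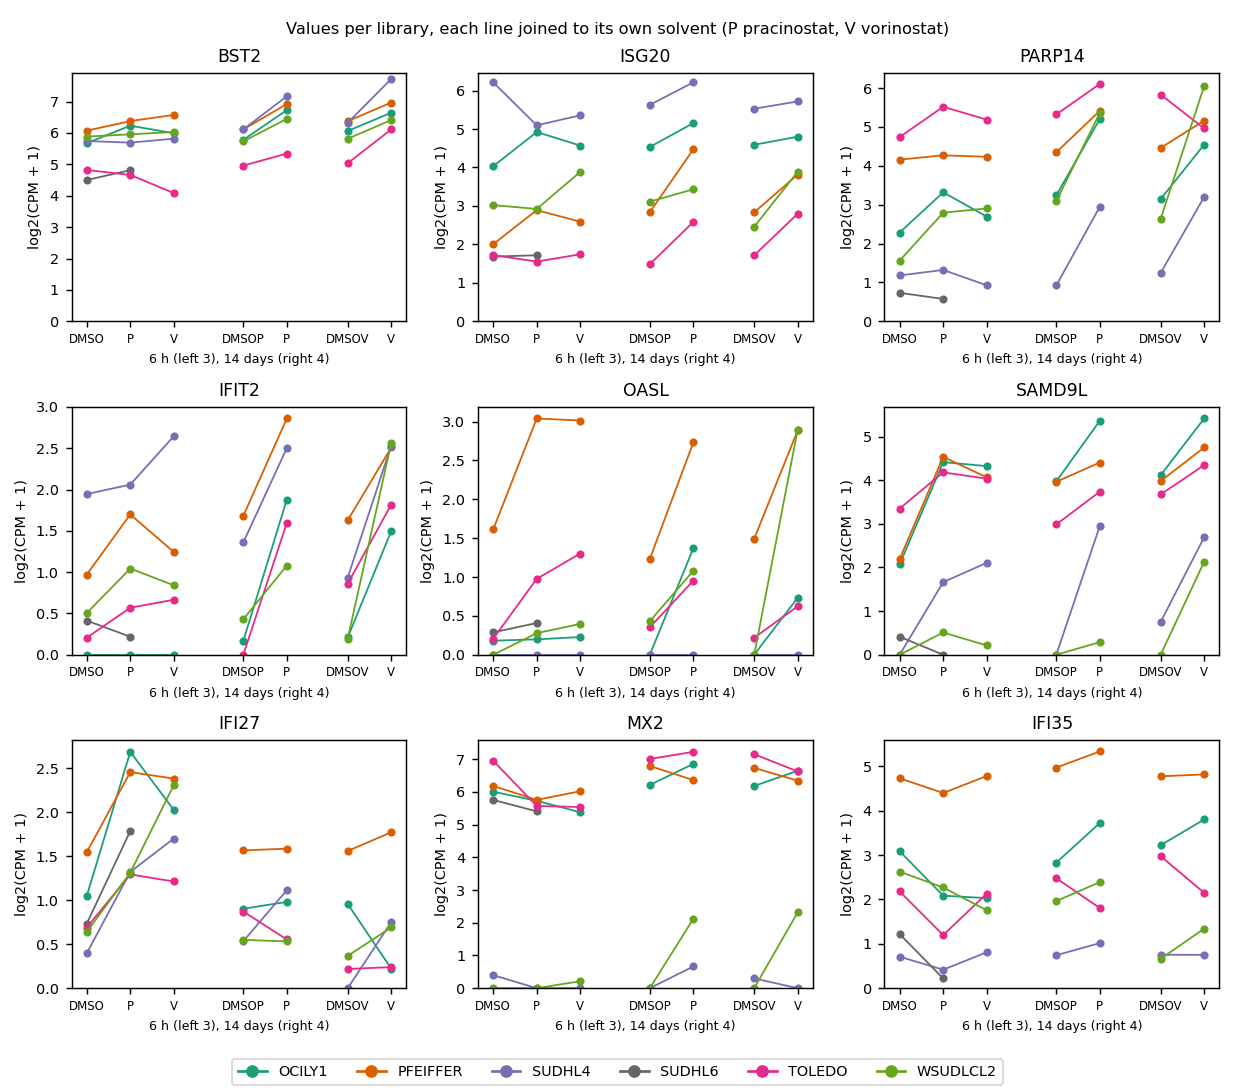
Level of 9 members in every library on the scale log2(CPM + 1) (y axis), by treatment and time (x axis), with P for pracinostat, V for vorinostat, 1 colour per cell line and drug libraries joined to the solvent of their line. BST2 is higher with drug in all 5 lines at 14 days, and OASL is at 0 in every SUDHL4 library.

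Members that were not called at 14 days included those with the widest ranges between lines. MX1 was at 14.2, 50.1, 0, 67.9 and 0.348 CPM in DMSOP and at 16.8, 32.8, 0.438, 73.5 and 10.3 CPM with pracinostat, and at 15.5, 47.8, 0, 83.3 and 0 CPM in DMSOV and 22.9, 23.2, 0, 15.7 and 2.46 CPM with vorinostat. WSUDLCL2 was higher with drug, while TOLEDO with vorinostat was far lower. The log2 change was 0.77 (adjusted p = 0.442 by edgeR) and -0.44 (adjusted p = 0.647). MX2 in WSUDLCL2 was at 0 in both solvent libraries, at 3.34 CPM with pracinostat and at 3.99 CPM with vorinostat.

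OAS3 was at 39.1, 2.45, 0, 0.415 and 55.0 CPM in DMSOP and at 88.8, 20.1, 0.292, 0.780 and 40.8 CPM with pracinostat, with a log2 change of 1.15 (SE 0.45, adjusted p = 0.0814 by edgeR). In DMSOV it was at 40.7, 3.62, 0.456, 0.163 and 54.3 CPM, and with vorinostat at 75.4, 13.7, 2.39, 0.722 and 66.9 CPM, with a log2 change of 1.11 (SE 0.46, adjusted p = 0.0705). OCILY1 and PFEIFFER were higher with either drug. Without WSUDLCL2 OAS3 was called higher with pracinostat (1.78, adjusted p = 0.0203 by edgeR) and with vorinostat (1.545, adjusted p = 0.0268). IFI16 was at 227, 70.5, 242, 664 and 217 CPM in DMSOV and at 153, 139, 103, 385 and 100.1 CPM with vorinostat, lower in every line but PFEIFFER, the line with the lowest solvent level (-0.50, adjusted p = 0.149, and -0.86 without PFEIFFER).

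IRF7, IRF9 and DDX58 were not called at 14 days either. IRF7 changed by -0.06 (adjusted p = 0.931 by edgeR) with pracinostat and -0.04 (adjusted p = 0.946) with vorinostat, IRF9 by -0.30 (adjusted p = 0.587) and 0.41 (adjusted p = 0.423), and DDX58 by -0.13 (adjusted p = 0.782) and -0.20 (adjusted p = 0.612). Nor were IFIT5, OAS2, IFI35, IFIH1, DHX58, USP18 (the protease that removes ISG15), SAMD9, TRIM22, EPSTI1 or CMPK2 called. RSAD2, the antiviral enzyme viperin, was at most 2.69 CPM in any library. HERC5, the main ISG15 ligase, was detected mostly in TOLEDO.

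Within single lines, the fold changes can be compared with all genes but have no replicate. Of 10636 genes with a mean of at least 5 CPM, 18 were members, and a 2-fold limit was applied to log2 CPM with a prior count of 2. With pracinostat at 14 days 7 of the 18 were at least 2-fold higher in OCILY1 (10.9% of all genes), 6 in PFEIFFER (11%), 5 in SUDHL4 (8.88%, and 3 members with a prior count of 5), 2 in TOLEDO (6.47%) and 6 in WSUDLCL2 (8.56%). Under vorinostat it was 3 in OCILY1 (9.13%), 3 in PFEIFFER (10.4%), 4 in SUDHL4 (11.9%), 5 in TOLEDO (11.9%) and 11 in WSUDLCL2 (13.5%). At least 2-fold lower with pracinostat were 1 in SUDHL4 (7.95%) and 0 in OCILY1 (4.3%), PFEIFFER (6.59%), TOLEDO (2.57%) and WSUDLCL2 (4.32%). For vorinostat the lower count was 3 in SUDHL4 (15.5%), 1 in PFEIFFER (8.27%), 1 in TOLEDO (14.5%), 1 in WSUDLCL2 (8.47%) and 0 in OCILY1 (4.42%). The median log2 change of the 18 was 1.41 in WSUDLCL2 with vorinostat and -0.49 in TOLEDO, beside -0.01 and -0.09 over all genes. With pracinostat the medians ran from 0.35 in TOLEDO to 0.80 in OCILY1. The limit of 5 CPM is a mean over all libraries, so it kept members that were near 0 in 1 line. Of the members higher in WSUDLCL2 with vorinostat, IFIT5, MX1, MX2, SAMD9 and SAMD9L had solvent means of 0.0852, 0.302, 0, 0.417 and 0 CPM there. Their ratios lean on the prior count, and that vorinostat library held only 3.42 M counts. The changes within lines are differences between single libraries, and the difference between lines was not tested.

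**Figure D5:**
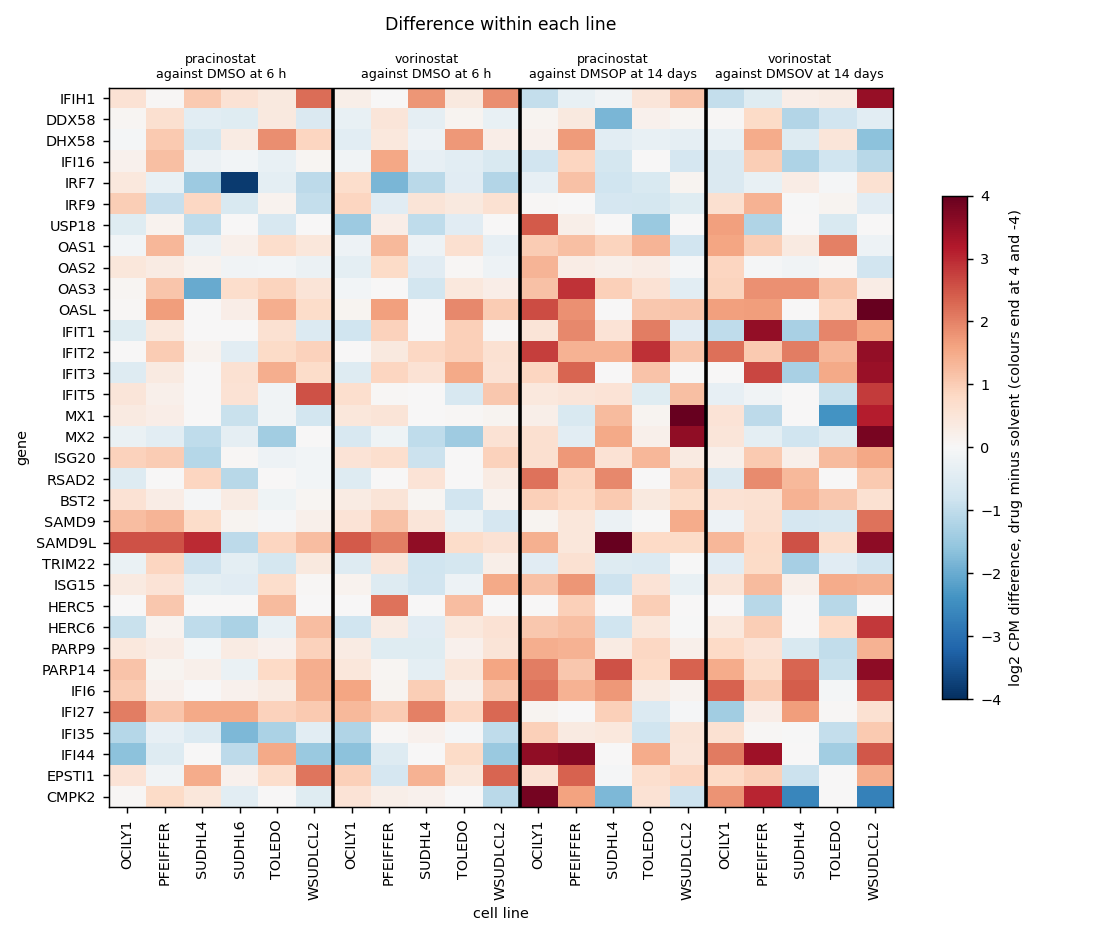
Log2 CPM difference between drug and solvent (colour, which ends at 4 and -4) of each member (rows) in each cell line (columns), for both drugs and times. With vorinostat at 14 days WSUDLCL2 has the most red cells, and MX1 in TOLEDO is blue.

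The drugs were also compared directly within lines, at doses that are not known to match. None of 25 tested members differed at 6 h, where 0.0152% of all genes did, and none of 29 at 14 days, where 0% did. The counts were 0 as well at an unadjusted p under 0.05 by edgeR, and by DESeq2 and limma. This does not show that the drugs act alike. At 14 days the log2 difference of pracinostat minus vorinostat was -0.29 for BST2 (95% interval -0.60 to 0.03), -0.27 for IFIT2 (-1.30 to 0.75), -0.35 for OASL (-1.76 to 1.06), 0.09 for PARP14 (-0.83 to 1.01), -0.47 for SAMD9L (-1.61 to 0.68) and 1.11 for MX1 (-0.34 to 2.56). At 6 h it was -0.10 for IFI27 (-0.75 to 0.56) and 0.10 for SAMD9L (-0.70 to 0.90).

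The change of each drug's effect from 6 h to 14 days was tested in 33 members as an interaction. How many of the 33 needed drug libraries to be tested in this joint fit was not counted. With pracinostat the effect on IFI44 and BST2 was higher at 14 days, 2 members where 9.53% of all 15420 genes were, and none was lower, where 9.83% were. With vorinostat the effect on BST2 was higher (1 member, 11.2% of all genes) and that on HERC5 lower (1 member, 12.2%). Without OCILY1, PFEIFFER, SUDHL4 or WSUDLCL2 0 members had a higher pracinostat effect, and 1 without SUDHL6. Without TOLEDO 3 and without WSUDLCL2 2 had a higher vorinostat effect, and without PFEIFFER or TOLEDO 0 a lower one. For BST2 the log2 difference of effects was 0.64 (SE 0.20, adjusted p = 0.026 by edgeR) with pracinostat, lost without OCILY1, PFEIFFER, SUDHL4 or WSUDLCL2 (adjusted p up to 0.112) and with library totals alone (0.071). With vorinostat it was 0.82 (SE 0.21, adjusted p = 0.0056), held without any 1 line.

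IFI44 and HERC5 rest on few counts. IFI44, a cytoplasmic protein of unclear role, was at 0 in 5 of 6 lines with pracinostat at 6 h, and at 4.75, 3.63, 0, 0.936 and 0.446 CPM with pracinostat at 14 days. Its fitted log2 value of 5.09 (SE 1.90, adjusted p = 0.0348 by edgeR) depends on those zeros, and it was lost without OCILY1, SUDHL4, SUDHL6 or WSUDLCL2 (up to 0.185). IFI44 reached the limit of the 6 h fit in 0 of 6 DMSO and 0 of 11 drug libraries. For the 14 day fit it was 0 of 10 solvent and 4 of 10 drug libraries, so its rise had an advantage in being tested. HERC5 in TOLEDO was at 5.21 CPM in DMSO and 12.6 with vorinostat at 6 h, and at 5.88 CPM in DMSOV and 2.53 with vorinostat at 14 days. PFEIFFER held at most 1.71 CPM and all other lines 0. Its value was -3.15 (SE 0.89, adjusted p = 0.0212 by edgeR), lost without PFEIFFER (0.217) and with DESeq2 and limma (up to 0.134). IFI44 and HERC5 were each tested in only 5 of 6 line omissions. The count of members with a lower pracinostat effect was 1 at an unadjusted p under 0.05, and 0 by DESeq2 and by limma.

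Members also moved in solvent between the times. In the 5 lines with both times 7 of 29 tested members were higher in solvent at 14 days than at 6 h, where 10.7% of all genes were, and 0 were lower, where 9.57% were. The count of higher members was 3 without OCILY1 and 4 without PFEIFFER. The count of lower members was 0 at an unadjusted p under 0.05 and 0 by DESeq2 and limma. OAS2 rose most firmly, from 8.15, 11.1, 19.6, 13.2 and 26.3 CPM in DMSO at 6 h (OCILY1 to WSUDLCL2 without SUDHL6) to 17.8, 30.5, 39.5, 19.2 and 50.3 CPM in DMSOP and 16.5, 30.0, 33.5, 27.4 and 42.4 CPM in DMSOV. It was higher in every line in both sets (log2 change 1.00, SE 0.13, adjusted p = 0.000136 by edgeR).

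IFI16 rose in solvent by 0.79 on the log2 scale (SE 0.15, adjusted p = 0.0037 by edgeR) and PARP14 by 0.80 (SE 0.20, adjusted p = 0.00995). These and the OAS2 call held without any 1 line. DDX58 rose by 0.59 (SE 0.15, adjusted p = 0.0124), DHX58 by 0.81 (SE 0.28, adjusted p = 0.0436), SAMD9 by 0.60 (SE 0.19, adjusted p = 0.0406) and SAMD9L by 1.31 (SE 0.37, adjusted p = 0.0282). The calls of DDX58, SAMD9 and SAMD9L were lost without OCILY1 or PFEIFFER (adjusted p up to 0.0589, 0.357 and 0.198), and that of DHX58 without OCILY1, SUDHL4, TOLEDO or WSUDLCL2 (up to 0.225). SAMD9 was also lost with DESeq2 (0.51, adjusted p = 0.0954) and with limma (0.20, adjusted p = 0.707), and SAMD9L with limma (adjusted p = 0.112). The 6 h and 14 day libraries may differ in more than time, which was not tested.

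Genes upstream of the members were taken from separate lists. Of 27 interferon and receptor genes 7 were in the table, and 6 were tested. IFNGR1, a chain of the interferon gamma receptor, rose in all 4 drug comparisons, by 0.96 and 1.23 on the log2 scale at 6 h and 0.93 and 1.06 at 14 days (pracinostat first). IFNGR2, its partner chain, fell in all 4, with log2 changes of -0.72 and -1.0 at 6 h and -0.87 and -0.70 at 14 days. The type I receptor chains IFNAR1 and IFNAR2 were not called in any of them. At 6 h the receptor chain IFNLR1 fell (-0.72 and -0.74) and the chain IL10RB rose, by 0.54 and 0.62. Of the 6 tested, 2 rose and 2 fell with either drug at 6 h. The shares of all genes there were 21.2% and 18.9% with pracinostat and 23.1% and 20.9% with vorinostat. With either drug at 14 days 1 rose and 1 fell, beside 12.3% and 10.2% of all genes with pracinostat and 20.4% and 17.2% with vorinostat. IFNB1 and TLR9 are not analysed here.

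Of 14 receptor signalling genes 13 were tested. STAT2 rose at 6 h, by 0.71 with pracinostat (adjusted p = 0.00161 by edgeR) and 1.01 with vorinostat (adjusted p = 0.000136), and at 14 days stood at 0.32 (adjusted p = 0.522) and 0.84 (adjusted p = 0.0628). IRF1, a transcription factor of the interferon gamma response, rose in all 4 comparisons, by 0.90 and 0.77 at 6 h and 0.74 and 1.18 at 14 days. STAT3 rose at 6 h by 0.87 and 1.31 and JAK1 by 0.31 and 0.46. TYK2 was not called. PTPN2, a phosphatase that acts on JAK1, fell at 6 h, with log2 changes of -0.66 and -0.71. At 14 days with vorinostat SOCS1, a feedback inhibitor of JAK kinases, rose by 1.19 and the phosphatase PTPN6 by 1.41. The phosphatase PTPN11 fell with both drugs at 14 days (-0.84 with vorinostat). Of the 13 tested, 5 rose and 1 fell with either drug at 6 h, where 21.2% of all genes rose and 18.9% fell with pracinostat and 23.1% and 20.9% with vorinostat. At 14 days it was 1 and 1 with pracinostat (12.3% and 10.2% of all genes) and 4 and 2 with vorinostat (20.4% and 17.2%).

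Of 23 sensor and adaptor genes 18 were in the table and 17 were tested. The adaptor kinase IRAK1 and the adaptor MYD88, both of Toll-like receptor signalling, fell at 6 h, with log2 changes of -1.42 and -0.94 with pracinostat and -1.51 and -1.12 with vorinostat. TRAF6 rose by 0.37 and 0.36. At 14 days AIM2, a DNA sensor of the inflammasome, rose by 2.07 with pracinostat (adjusted p = 0.00209 by edgeR) and 1.90 with vorinostat (adjusted p = 0.0012), and with vorinostat IRF5 rose by 0.98 and IRF3 by 0.55. TBK1 was called lower with both drugs at 14 days, and IRAK1, TRAF3 and ADAR were called lower with vorinostat. CGAS, which makes the messenger that activates STING, and MAVS, the adaptor of RIG-I, were not called in any drug comparison. STING itself (TMEM173) had too few counts for the drug tests at either time, since only TOLEDO held it (5.86 to 10.8 CPM) and no other library exceeded 0.875 CPM. Rises and falls among the 17 were 1 and 4 at 6 h with either drug. Of all genes 21.2% rose and 18.9% fell there with pracinostat, and 23.1% and 20.9% with vorinostat. At 14 days they were 1 and 1 with pracinostat (12.3% and 10.2% of all genes) and 3 and 4 with vorinostat (20.4% and 17.2%). The 4 falls of 17 lie near the shares of falls at 6 h and with vorinostat at 14 days, while the 1 rise at 6 h lies below the shares of rises.

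Of 50 other interferon-induced genes 45 were in the table, 36 tested at 6 h and 42 at 14 days. At 6 h pracinostat gave 9 rises and 6 falls and vorinostat 10 and 7, which is near the 21.2% and 18.9%, and the 23.1% and 20.9%, of all genes. Of the 36, 13 needed drug libraries to be tested, SLFN5, TYMP, NMI and IFI30 among them. SLFN5, of the Schlafen family, rose by 2.62 and 2.63 and TDRD7 by 1.43 and 1.27 (pracinostat first), and TYMP rose by 1.37 with vorinostat. NMI fell (-1.06 and -1.52), as did PARP10 (-1.02 and -1.36), and IFI30 fell with pracinostat (-1.07). At 14 days there were 10 rises and 2 falls under pracinostat (12.3% and 10.2% of all genes) and 11 and 6 under vorinostat (20.4% and 17.2%). Of the 42, 9 needed drug libraries, and 4 of the rises with pracinostat and 3 of those with vorinostat were theirs. GBP1, an interferon-induced GTPase, and DDX60 were among these and near 0 in solvent, so their levels are given in place of fold changes. GBP1 rose with pracinostat, from 0.498, 0, 0, 0.415 and 0 CPM in DMSOP to 24.2, 1.13, 2.48, 2.81 and 0.223 CPM (OCILY1 to WSUDLCL2), so OCILY1 held most of it. DDX60 rose with both drugs, from at most 0.830 CPM in DMSOP to 0.146 to 11.9 CPM with pracinostat and from at most 0.653 CPM in DMSOV to 0 to 9.24 CPM with vorinostat. SLFN5 rose with both drugs, by 2.96 with vorinostat. TRIM14 fell with both (-0.94 and -1.42), as did EIF2AK2, the RNA-activated kinase PKR (-0.56 with pracinostat), while LAMP3 fell with vorinostat (-2.43). ADAR stands on 2 of these lists.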

How the data were processed

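Per the labels' protocols, Trizol was used for RNA and the Illumina TruSeq RNA kit for libraries. STAR, edgeR and build hg38 are named, per the submitters' processing notes, with versions not given in the sources used here. The deposited raw table holds whole-number read counts per gene. The deposited normalised table holds log2 CPM, which a recomputation from the counts with TMM factors and a prior count of 0.25 matched to within 1e-05. The series lists 38 samples, and 1 of them, a further SUDHL4 library with vorinostat for 14 days, has no column and was not used. The normalised table names its 6 h DMSO columns with a final V or P, although their titles say DMSO alone.

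Symbols and positions came from GENCODE 29 on GRCh38, which named 17859 of 18011 genes. Counts were tested with edgeR 4.0.16 (R 4.3.3) by robust quasi-likelihood F tests with TMM factors, the filterByExpr defaults (minimum count 10, minimum total 15) and the cell line as block, 1 fit per time. The line pairs treated with solvent libraries because the same line is in each. Changes between times were interactions in a joint fit with line by time as block, and solvent contrasts from the solvent libraries of 5 lines. The p-values were adjusted by Benjamini-Hochberg over every gene in the fit, with calls at 0.05. Standard errors and 95% intervals use the fitted means and the moderated quasi-likelihood dispersion. CPM values use library totals scaled by TMM factors. Per-line changes are log2 CPM differences with a prior count of 2, for genes with a mean of at least 5 CPM and a limit of 2-fold. The code was tested on simulated data. Alternatives were DESeq2 1.42.0 (Wald test, and its size factors in edgeR), limma 3.58.1 on the deposited log2 CPM, library totals alone, other filters, a fit that is not robust, no block, each line left out, other DMSO sets, a prior count of 5 and a shorter motif.

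The members and the other gene lists (sensors, interferons and receptors, receptor signalling, other interferon-induced genes, cell type markers) were chosen with earlier results of these data known. A gene of these other lists is not reported here and was left out of their counts. Values per library are given for the members called in most drug comparisons (up to 8), for the 3 largest called rises and falls per comparison, for the 4 with the widest range between lines in solvent, and for ISG15, MX1, IFIT1, IRF7, IRF9, DDX58 and IFI16. OAS1, MX2 at 14 days, IFI44, HERC5, PARP9, OAS2 and the per-library values of STING, GBP1 and DDX60 were added after their values were seen. From the other lists, up to 2 called rises and 2 falls per comparison and a fixed set of signalling genes are named.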

Additional observations from a re-analysis of the deposited data

Results flagged for a closer look

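Within each drug comparison the log2 CPM difference of a line was set against the other lines. Of 108 sets of line values checked, 11 had 1 line standing apart from the rest, where chance would give about 1 in 20 if the sets were independent. Sets share genes and DMSO libraries, so the 11 cannot be read as an excess. At 6 h with pracinostat these were IFIT5 in WSUDLCL2 (2.55, the others -0.15 to 0.59), OAS3 in SUDHL4 (-2.02, the others 0.07 to 1.12) and IFI16 in PFEIFFER (1.20, the others -0.31 to 0.16). IFI16 in PFEIFFER also stood apart with vorinostat at 6 h (1.54, the others -0.60 to -0.15), against the same DMSO library. OAS3 in SUDHL4 was at 0.950 CPM in DMSO and 0 with pracinostat, so few counts lie behind it. IFIT5 in WSUDLCL2 had a solvent mean of 0.0852 CPM and also rests on few counts.

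At 14 days with pracinostat 1 line stood apart for OAS1 (WSUDLCL2, -0.76, the others 0.89 to 1.36), OAS2 (OCILY1, 1.36, the others -0.04 to 0.30), DDX58 (SUDHL4, -1.82, the others 0.09 to 0.39), DHX58 (PFEIFFER, 1.70, the others -0.42 to 0.17) and SAMD9L (SUDHL4, 4.49, the others 0.46 to 1.43). With vorinostat WSUDLCL2 stood apart for IFIT5 (2.79, the others -0.90 to 0) and MX2 (3.79, the others -0.79 to 0.47). Solvent means were 0.0852 CPM for IFIT5 and 0 for MX2 in WSUDLCL2, and 0.228 for SAMD9L in SUDHL4, so few counts lie behind these as well.

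The drug effect differed between 14 days and 6 h, by the interaction test, for BST2 with pracinostat (0.64 on the log2 scale) and with vorinostat (0.82), for IFI44 with pracinostat (5.09) and for HERC5 with vorinostat (-3.15).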

How the results depend on the processing

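Counts of members called moved with the setting, while none of the 37 called results for members reversed. Without the replicate block, that is without cell line in the fit, the counts of rises were 0 with pracinostat and 1 with vorinostat (IFI27) at 6 h, 0 with either drug at 14 days, 0 for either change of effect between times and 0 in solvent, and the counts of falls were 0 at 6 h and for the vorinostat effect. With the limma test the counts were 2 rises and 1 fall with pracinostat and 0 falls with vorinostat at 6 h, and 4 and 2 higher and 0 lower effects between times (pracinostat, then vorinostat). With library totals alone 1 member fell with pracinostat at 6 h and 1 pracinostat effect was higher at 14 days. With no low-count filter 4 rose with vorinostat at 6 h. At a mean of at least 5 CPM 1 rose with vorinostat at 6 h and 6 at 14 days, 0 vorinostat effects were lower and 18 members differed between lines, with fewer members tested. With DESeq2 0 vorinostat effects were lower. Against the mean of both DMSO sets 11 rose with pracinostat at 14 days, and against the other DMSO set 7 rose with vorinostat. Leaving out 1 line at a time gave 2 to 4 rises and 1 to 2 falls with pracinostat at 6 h, 2 to 3 rises and 0 to 3 falls with vorinostat at 6 h, 3 to 8 rises with pracinostat and 4 to 7 rises and 0 to 2 falls with vorinostat at 14 days, 0 to 3 higher pracinostat effects, 1 to 3 higher and 0 to 1 lower vorinostat effects, 3 to 7 rises in solvent and 25 to 29 members that differed between lines. The share of all genes called under each setting is not given here, so shifts in these counts cannot be read as particular to the members. The cause was not tested. Members under the limit of the filter were too shallow for a test, and the many members within a few counts of 0 limit the precision of their fold changes. The shorter motif, with 1 base less at each end, was in 22 of 26 member windows (84.6%) and 22.2% of all windows.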
